A study of Mus musculus with 21 samples.

Results

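The 44 genes described here belong to the machinery of cell division, and were taken by symbol from a table of 24623 genes. All 44 were found and all 44 were tested. By role, 14 are DNA replication genes (Mcm2 to Mcm7, Gins2, Cdc45, Cdc6, Cdt1, Pcna, Rrm1, Rrm2 and Tyms), 4 act at the entry into S phase (Ccne1, Ccne2, Cdk2 and Slbp), 24 act in G2 and mitosis and 2 are transcription factors (Foxm1 and Mybl2). The 24 include the kinase Cdk1 with the cyclins Ccna2, Ccnb1 and Ccnb2, the kinases Aurka, Aurkb, Plk1 and Bub1 and the checkpoint gene Bub1b. Also among them are the kinetochore genes Cenpe and Cenpf, the kinesins Kif11, Kif20a and Kif23 and the spindle genes Tpx2, Nusap1, Prc1 and Hmmr. The rest are the passenger complex genes Birc5 and Cdca8, Cdc20 and Ube2c of the anaphase-promoting complex, and Top2a and Mki67. Transcript levels came from RNA sequencing of tumour cells from 2 mouse pancreatic cancer clones, 6694c2 and 6419c5. The cells had been placed under the skin of C57BL/6 mice, received no treatment, and were sorted from the tumours after 3 weeks. Clone 6694c2 had 4 libraries of its parental line (WT) and 4 of each of 2 lines labelled EPHA2-KO, and clone 6419c5 had 3 libraries of each of the same kinds of line. EPHA2 is a receptor tyrosine kinase that binds ephrins. The deposited table letters the knockout lines KOA and KOB, while the sample labels number them, and no source used here ties a letter to a number. How EPHA2 was edited and whether a line grew from 1 cell are not given in the labels. Nor is it stated that the libraries of 1 line are separate tumours, so p-values measure only the spread between libraries, which may be technical.

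Cells copy their DNA in S phase and divide it in mitosis, and many genes of each step are transcribed just before they are needed. Around the G1 to S boundary, cyclin D and cyclin E kinases inactivate the retinoblastoma proteins, and E2F factors then drive replication genes. Later, MYBL2 and FOXM1 drive the genes of G2 and mitosis, many of which carry a short promoter element called the cell cycle genes homology region (CHR). In a bulk sample, a lower level of such a gene can come from fewer cells in that phase or from less RNA per cell, and these cannot be told apart. Pancreatic tumour cells that divide express both sets.

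The promoters of these genes differ between the 2 large roles, and 6 are printed, from genes of both roles that are described below. Windows of 300 bases around annotated RefSeq start sites (GRCm38.p6, the same assembly as mm10) were present for 36 of the 44 genes. Each sequence is the 150 bases before the start, read 5′ to 3′ on the strand of the gene, with every match to a searched motif in capitals. Matches were sought on both strands. The first motif was CHR, spelled TTTGAA in its usual form. Its other form, also searched here, was TTCGAA. Another promoter motif, bound by the factor NF-Y, was CCAAT. The E2F words were TTTCCCGC, TTTCGCGC, TTTGCCGC and TTTGGCGC. Mcm6, Cdc45 and Rrm2 are replication genes, and Cdc20, Top2a and Cdk1 are genes of G2 and mitosis. The windows lie at chr1:128359706-128359855 (minus strand) for Mcm6, chr16:18811973-18812122 (minus strand) for Cdc45, chr12:24708104-24708253 (plus strand) for Rrm2, chr4:118437344-118437493 (minus strand) for Cdc20, chr11:99024190-99024339 (minus strand) for Top2a and chr10:69352913-69353062 (minus strand) for Cdk1.
Mcm6: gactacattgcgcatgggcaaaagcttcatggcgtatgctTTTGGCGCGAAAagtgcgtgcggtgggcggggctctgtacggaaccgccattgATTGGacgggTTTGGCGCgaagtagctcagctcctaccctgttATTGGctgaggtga
Cdc45: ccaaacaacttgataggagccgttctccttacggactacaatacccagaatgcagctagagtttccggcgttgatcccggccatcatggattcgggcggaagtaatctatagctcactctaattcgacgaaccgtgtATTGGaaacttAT
Rrm2: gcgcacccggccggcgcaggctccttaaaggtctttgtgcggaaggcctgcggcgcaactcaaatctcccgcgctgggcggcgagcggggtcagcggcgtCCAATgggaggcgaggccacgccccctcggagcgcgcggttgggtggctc
Cdc20: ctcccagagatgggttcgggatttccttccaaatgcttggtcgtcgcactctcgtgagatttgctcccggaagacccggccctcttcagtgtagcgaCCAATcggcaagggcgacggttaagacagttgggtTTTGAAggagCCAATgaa
Top2a: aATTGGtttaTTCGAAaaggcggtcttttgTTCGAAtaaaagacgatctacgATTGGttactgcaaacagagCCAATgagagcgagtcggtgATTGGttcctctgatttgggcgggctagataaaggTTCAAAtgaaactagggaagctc
Cdk1: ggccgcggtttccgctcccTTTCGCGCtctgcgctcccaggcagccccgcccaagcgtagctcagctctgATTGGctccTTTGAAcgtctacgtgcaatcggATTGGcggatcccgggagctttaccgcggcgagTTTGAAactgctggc
In Mcm6 the first capital run holds 2 E2F words on opposite strands that overlap each other. The last capitals of Cdc45 begin a reverse CCAAT that runs past the start site. Neither Cdc45 nor Rrm2 had an E2F word, and the CHR words of Cdc45 lay outside its printed bases. CHR words were in 81.0% of the mitotic windows (17 of 21) and 23.1% of the replication windows (3 of 13), beside 19.2% of all 32851 windows. E2F words were in 46.2% of the replication windows (6 of 13) and 4.76% of the mitotic windows (1 of 21, Cdk1), beside 2.26% of all windows. CCAAT was in 76.9% and 90.5% of them, beside 37.4% of all. These matches describe letters only, and a window without a match says nothing about which factors act there.

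Some libraries stood apart from the others of their line. In the KOA line of 6694c2, Epcam, an epithelial adhesion gene, measured 53.0, 10.8, 1.07 and 0.864 TPM in libraries 1 to 4, against 10.2 to 13.9 in WT. Every library summed to 1000000 TPM, a measure of transcript abundance per length relative to all transcripts, and the depth in reads is unknown. The small RNA gene Mir6236 took 14.5% of the TPM in KOB library 4 of 6694c2 and 9.11% in WT library 3 of 6419c5, against 2.27% to 5.45% in the rest. Epha2, the targeted gene, measured 239.9 to 252 TPM in WT of 6694c2, 92.1 to 129.7 in KOA and 88.0 to 113 in KOB. In 6419c5 it measured 164 to 190.4, 144 to 156 and 169.7 to 221 in the same order, so KOB reached above WT there. An edited gene may still be transcribed, so these levels do not check the labels of that clone. The epithelial keratin Krt18 was at 1903 TPM or more in every library, but other epithelial genes were lower. Of a list of 10 epithelial genes, all reached 1 TPM in WT of 6694c2, 7 to 9 in KOA and 9 in KOB. In 6419c5 all 10 did in every library except KOB library 2, with 9. One library of a line was often the lowest for most of the 44 genes: library 2 of KOA (41 genes) and library 4 of KOB (38 genes) in 6694c2, and library 3 of KOA (37 genes) and library 2 of KOB (33 genes) in 6419c5. How often these libraries were the lowest over all genes was not counted, so this may not be particular to the 44.

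All 44 genes exceeded 1 TPM in all 21 libraries, the lowest value being 1.62 TPM for Ccne1. Averaged over the libraries, Pcna, the sliding clamp of DNA polymerases, was at 184 TPM, Cdc20, an activator of the anaphase-promoting complex, at 106, Mcm7 at 95.1 and Ube2c, the ubiquitin-conjugating enzyme of that complex, at 93.5. At the low end were Ccne2 at 3.49 TPM, the helicase loader Cdc6 at 5.42, Ccne1 at 5.64 and the spindle checkpoint kinase Bub1 at 7.69. Between the 6 lines, the highest line mean was 5.51 times the lowest for Ccne1, 2.82 times for Mcm4, 2.53 times for Cdc45 and 2.05 times for Cdk2. It was between 1.13 and 1.97 times for the other 40. Cdca8, Kif11 and Kif23, which act on the spindle and its midzone, varied little, at 1.13, 1.14 and 1.15 times. The KOB line of 6694c2 had the lowest mean of the 6 lines for 10 of the 14 replication genes and for 7 of the 24 mitotic genes. For how many of all genes it had the lowest mean was not counted. Tyms was among the 10, but was near its level in WT of that clone, as given below.

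**Figure D1:**
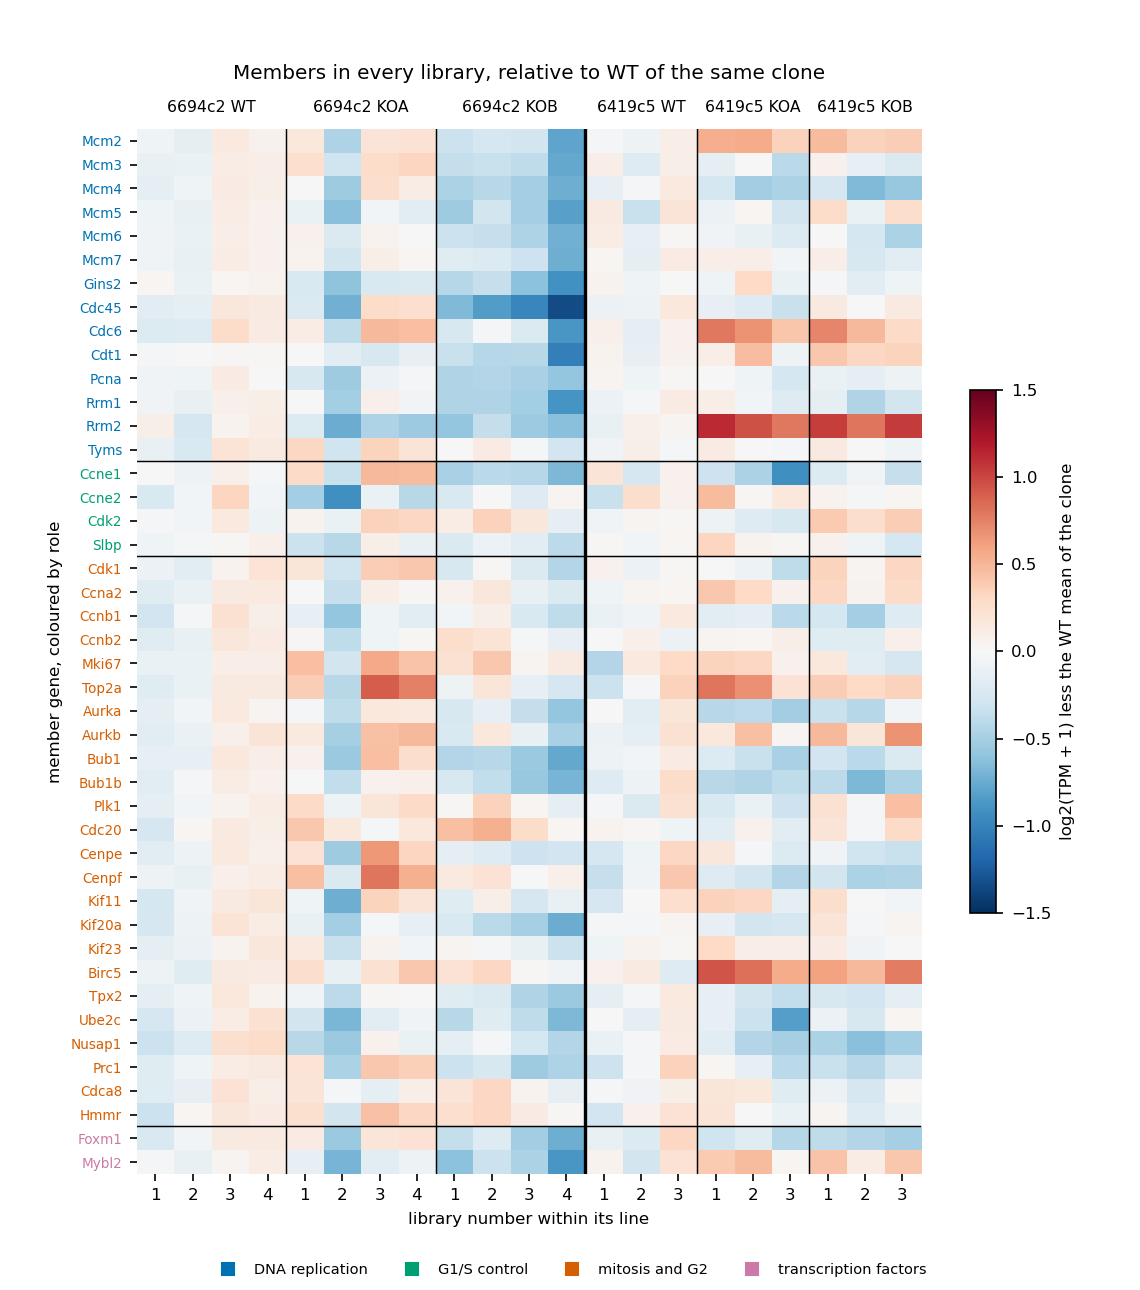
Level of the 44 genes (rows, by role) in each of the 21 libraries (columns), as log2(TPM + 1) less the mean of the WT libraries of the same clone, with blue below and red above it. KOB of 6694c2 is blue over most replication genes, with library 4 the darkest, and Rrm2 and Birc5 are red in the 6 libraries of the KOA and KOB lines of 6419c5.

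The first comparison asked how the KOB line of 6694c2 differed from its WT line. Replication genes were lower in KOB: 12 of the 14 fell, and the 14 had a median difference of −0.51 on the log2(TPM + 1) scale, on which all differences here are given. Mitotic genes moved less as a set, with 6 of 24 lower, Cdc20 higher and a median of −0.13. Both transcription factors and 1 of the 4 genes of S phase entry (Ccne1) fell. Together 21 of the 44 fell and 1 rose, where 19.4% of all 14337 tested genes fell and 29.2% rose, and the median was −0.33 over the 44 genes and 0.07 over all. Calls were made at an adjusted p under 0.05 in limma, a linear model fitted to all genes and libraries with Benjamini-Hochberg adjustment, and ± after a difference is its standard error. Leaving out KOB library 4 left 10 of the 14 replication genes lower, the fewest of any refit that left out 1 library or changed the scale, filter or pseudocount.

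Among the replication genes, the helicase that unwinds DNA moved with the factors that switch it on. Cdc45, which joins the MCM ring to form the active helicase, measured 16.9, 17.2, 21.5 and 21.1 TPM in WT libraries 1 to 4 and 11.7, 10.2, 9.22 and 6.91 in KOB. Every KOB library was below every WT library, and the gene fell by 0.96 ± 0.18 (adjusted p 0.000207). Its partner Gins2, a subunit of the GINS complex, measured 44.1, 40.5, 44.1 and 44.9 TPM in WT and 31.9, 34.0, 28.0 and 22.7 in KOB, without overlap, and fell by 0.57 ± 0.11 (adjusted p 0.000429). The ring subunit Mcm6 measured 99.3, 96.0, 110.3 and 108 TPM in WT and 82.4, 81.1, 74.8 and 62.0 in KOB. Again no KOB library reached the WT range, and Mcm6 fell by 0.46 ± 0.10 (adjusted p 0.00104). The other 5 ring subunits fell as well, Mcm2 by 0.41, Mcm3 by 0.46, Mcm4 and Mcm5 by 0.53 each and Mcm7 by 0.36, and their WT and KOB libraries did not overlap either. Of these, 2 calls were lost when 1 library was left out, given here by line and library number: Mcm2 (6694c2 WT 3 or 6694c2 KOB 4, adjusted p 0.0582 to 0.0768) and Mcm7 (6694c2 KOB 4, adjusted p 0.0589).

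The licensing factors, the clamp and the enzymes of nucleotide supply followed with exceptions. Cdt1, which loads the ring onto DNA, measured 49.2, 49.7, 50.8 and 50.7 TPM in WT and 39.5, 37.1, 37.3 and 24.2 in KOB and fell by 0.55 ± 0.12 (adjusted p 0.00129). All 4 KOB libraries were below WT, and library 4 was the lowest. Its fellow loader Cdc6 overlapped between the lines, at 4.89, 4.92, 7.19 and 6.38 TPM in WT and 4.74, 5.70, 4.81 and 2.69 in KOB, and did not pass the test (−0.34 ± 0.20, adjusted p 0.168). Pcna measured 213, 211, 240.3 and 221 TPM in WT and 162, 163, 158 and 148 in KOB and fell by 0.49 ± 0.09 (adjusted p 0.000123). The KOB values lay within a narrow band below all WT values. Rrm1 and Rrm2 encode the large and small subunits of ribonucleotide reductase, which makes deoxynucleotides. Rrm1 measured 38.9, 37.4, 42.8 and 42.9 TPM in WT and 29.4, 29.4, 28.1 and 21.5 in KOB, without overlap, and fell by 0.57 ± 0.12 (adjusted p 0.000841). Rrm2 measured 114, 90.1, 111 and 116 TPM in WT and 71.4, 83.7, 73.1 and 69.3 in KOB, again apart, and fell by 0.52 ± 0.11 (adjusted p 0.000592). Tyms, thymidylate synthase, was the gene of this role with the smallest difference (−0.05 ± 0.13, adjusted p 0.794), with 9.33, 8.51, 11.9 and 11.2 TPM in WT and 10.1, 11.1, 10.0 and 8.16 in KOB. Its pseudogene Tyms-ps, whose reads may be shared with it, was at 0.992 TPM or less.

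**Figure D2:**
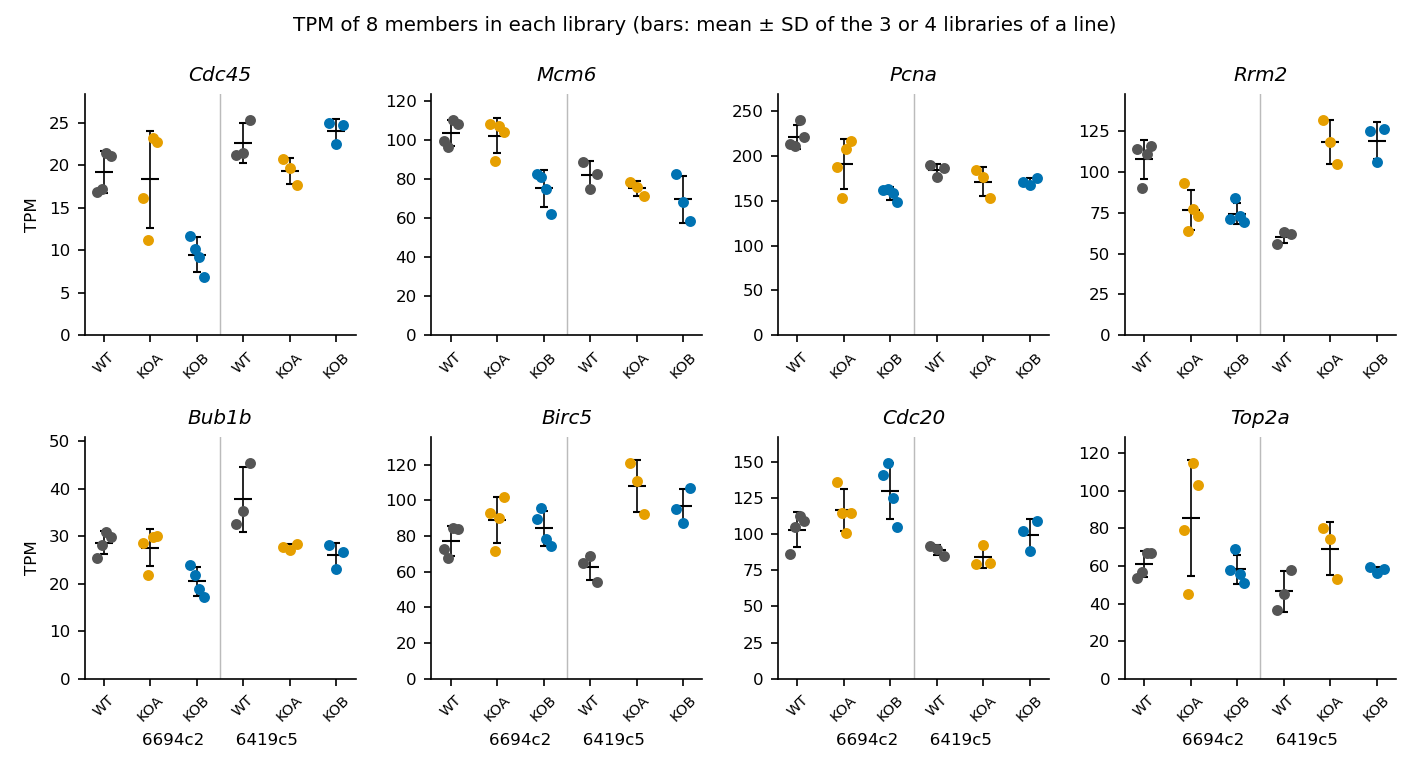
TPM of 8 genes in each library of the 6 lines (points), with the mean and SD of the 3 or 4 libraries of a line (bars). Cdc45, Mcm6 and Pcna are lower in KOB of 6694c2, while Rrm2 is lower in both knockout lines of 6694c2 and higher in both of 6419c5.

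Of the mitotic genes, 6 fell in KOB. Bub1b, the BUBR1 checkpoint protein, measured 25.5, 28.1, 31.0 and 29.9 TPM in WT and 24, 21.8, 18.9 and 17.2 in KOB, without overlap, and fell by 0.47 ± 0.12 (adjusted p 0.0033). Bub1 fell by 0.54 ± 0.16, the midzone kinesin Kif20a fell by 0.47 ± 0.12 and Tpx2, an activator of Aurora A, fell by 0.35 ± 0.11. Aurka, Aurora A itself, fell by 0.33 ± 0.13 and Ube2c fell by 0.41 ± 0.16, both with adjusted p near the threshold (0.0389 and 0.036). Cdc20 measured 86.2, 105, 113 and 109 TPM in WT and 141, 149.6, 125 and 105 in KOB and rose by 0.33 ± 0.11 (adjusted p 0.0222), although KOB library 4 lay inside the WT range. With size factors Cdc20 no longer passed (0.25, adjusted p 0.0827). The remaining 17 did not pass, with differences from −0.39 (Prc1, a midzone microtubule bundler) to 0.20 (Mki67, the Ki-67 protein). Among them Cdk1, the mitotic kinase, stood at −0.22 ± 0.14, and its cyclins Ccna2, Ccnb1 and Ccnb2 at −0.02 ± 0.11, −0.14 ± 0.13 and 0.08 ± 0.10. Nearer to 0 were Top2a at −0.07 ± 0.22, Plk1 at 0.07 ± 0.12 and Birc5 at 0.12 ± 0.12. WT and KOB libraries of 4 mitotic genes (Bub1, Bub1b, Tpx2 and Prc1) did not overlap, against 12 of 14 replication genes, all with KOB below WT. Of all tested genes, 23.2% had every KOB library below every WT library. When 1 library was left out, calls were lost for Aurka (6694c2 WT 2, 3, 4 or 6694c2 KOB 3, 4, adjusted p 0.0574 to 0.132), Ube2c (6694c2 WT 3, 4 or 6694c2 KOB 1, 3, 4, adjusted p 0.0577 to 0.114) and Cdc20 (6694c2 WT 1 or 6694c2 KOB 1, 2, adjusted p 0.0701 to 0.0931).

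The 2 transcription factors, which act in G2 and mitosis, also fell in KOB. Mybl2 measured 13.6, 12.8, 14.3 and 15.1 TPM in WT and 8.77, 10.9, 9.70 and 7.13 in KOB, without overlap, and fell by 0.58 ± 0.15 (adjusted p 0.00399). Foxm1 overlapped by 1 KOB library, at 37.4, 42.9, 48.4 and 48.2 TPM in WT and 34.2, 38.5, 30.4 and 26.0 in KOB, and fell by 0.45 ± 0.16 (adjusted p 0.0248). When 1 library was left out, this call was lost: Foxm1 (6694c2 WT 3, 4 or 6694c2 KOB 3, 4, adjusted p 0.0579 to 0.0862). Cyclin E1, which opens S phase with CDK2, was low throughout this clone: Ccne1 measured 3.22, 2.98, 3.43 and 3.16 TPM in WT and 1.99, 2.16, 2.13 and 1.62 in KOB and fell by 0.50 ± 0.16 (adjusted p 0.0165). The other genes of S phase entry did not pass: Ccne2 at −0.09 ± 0.17, Cdk2 at 0.12 ± 0.10 and Slbp, the histone mRNA binding protein, at −0.22 ± 0.10. All Slbp values in KOB (29.7 to 36.8 TPM) were nevertheless below those in WT (37.3 to 41.4).

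Markers of other cell types differed between these lines too. In KOB, 6 to 10 of 18 leukocyte markers reached 1 TPM and the list summed to 44.2 to 136 TPM per library, against 8 to 10 of 18 and 90.9 to 647 in WT. The 9 fibroblast markers summed to 69.8 to 120.0 TPM in KOB (5 to 6 at 1 TPM or more) and 228 to 352 in WT (7 to 8), and the 6 endothelial markers to 1.52 to 2.64 and 2.28 to 6.31. The 5 erythroid markers summed to 251 to 389 in KOB and 84.1 to 125 in WT. Ncr1, which marks natural killer cells, was listed at 0 in all KOB and all WT libraries. The part of these cells in the lower replication genes was not tested. Of the 10 epithelial genes, Cdh1, Krt19 and Muc1 rose in KOB and Cldn4, Cldn7, Krt18 and Sox9 fell, while Epcam, Krt7 and Krt8 were not called.

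**Figure D3:**
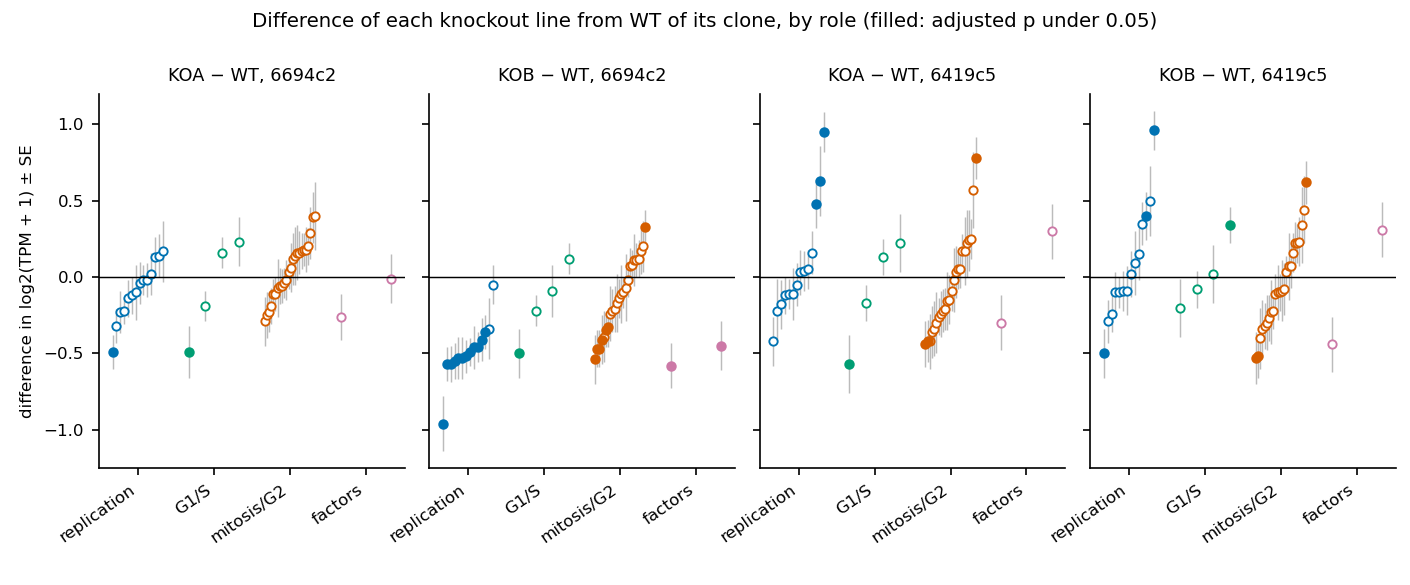
Difference of each knockout line from WT of its clone for the 44 genes, by role, in log2(TPM + 1) with standard errors from limma, and filled where the adjusted p was under 0.05. In KOB of 6694c2 all 14 replication genes lie below 0, while in the other 3 comparisons they lie on both sides of it.

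To set replication against mitosis within a library, the mean log2(TPM + 1) of the 24 mitotic genes was subtracted from that of the 14 replication genes. In 6694c2 this difference was 0.73, 0.58, 0.61 and 0.57 in the WT libraries, 0.51, 0.54, 0.45 and 0.46 in KOA and 0.30, 0.25, 0.37 and 0.15 in KOB. The 3 lines did not overlap, and WT was highest and KOB lowest. In 6419c5 it was 0.58, 0.39 and 0.37 in WT, 0.53, 0.60 and 0.59 in KOA and 0.64, 0.61 and 0.47 in KOB. There the lines overlapped, with means of 0.45 ± 0.12, 0.57 ± 0.04 and 0.57 ± 0.09 (SD, n = 3 each). Wider lists gave another picture. For 40 other replication genes less 50 other mitotic genes, the difference ran from −0.02 to 0.02 in WT, −0.01 to 0.04 in KOA and −0.07 to 0.06 in KOB, so the 3 lines overlapped. In those lists 13 of 40 replication genes and 13 of 50 mitotic genes fell in KOB, where 19.4% of all genes did. Of these calls, 5 and 10 in turn held whichever library was left out. The medians of the lists were −0.22 and −0.24. So the larger shift of replication genes than of mitotic genes was seen among the 44 genes and not in these lists.

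**Figure D4:**
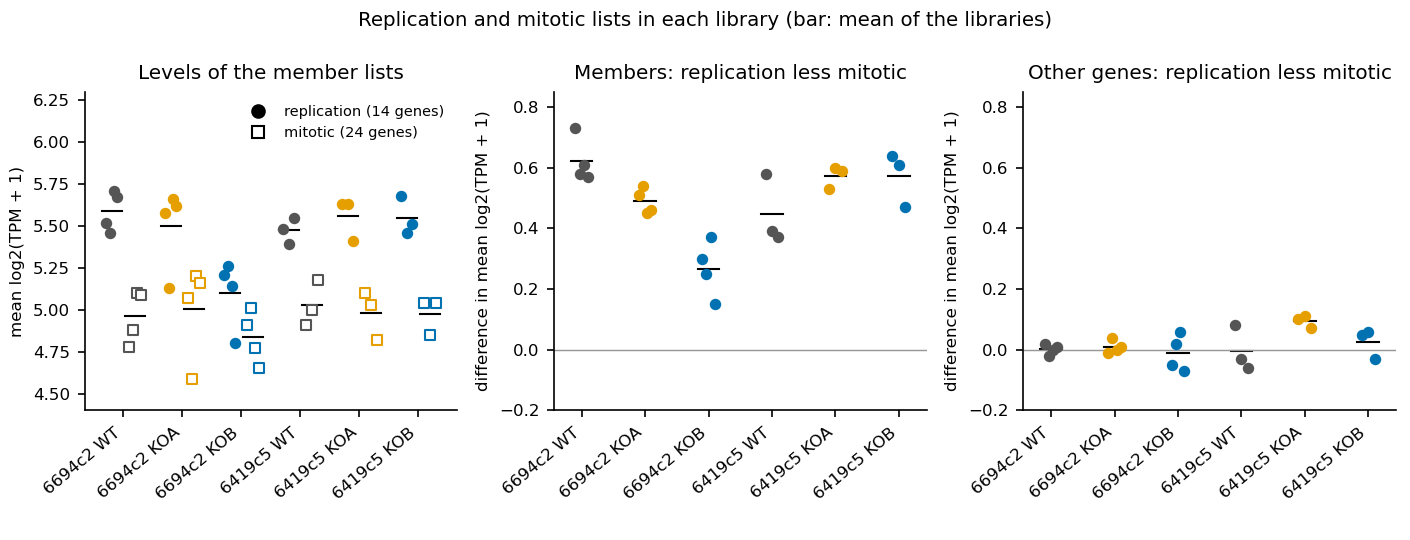
Left, mean log2(TPM + 1) of the 14 replication genes and the 24 mitotic genes in each library. Middle and right, replication less mitotic for the 44 genes and for 40 and 50 other genes of the same processes, with the mean of each line as a bar: KOB of 6694c2 is lowest in the middle, and no line of 6694c2 is apart on the right.

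Named by the smallest adjusted p in these wider lists, the replication genes lower in KOB were Orc6, a subunit of the origin recognition complex (−0.59 ± 0.10), the clamp loader Rfc3 (−0.47 ± 0.10), the GINS subunit Gins1 (−0.71 ± 0.19) and the polymerase alpha catalytic subunit Pola1 (−0.75 ± 0.21). Of the mitotic genes, Cks1b, a CDK-binding protein (−0.68 ± 0.09), Troap (−0.64 ± 0.13) and the condensin subunit Ncaph (−0.51 ± 0.13) fell, while the spindle gene Psrc1 rose (0.74 ± 0.18). All 8 were called, with adjusted p between 7.29e-06 and 0.00552. In all, 1 of the 40 replication genes and 2 of the 50 mitotic genes rose.

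KOA, the other knockout line of 6694c2, differed little from WT in these genes. The test called 2 of the 44, both lower, where 7.56% of all genes fell and 15.2% rose, and the medians were −0.02 and 0.08. Rrm2 measured 92.9, 63.6, 77.3 and 73.2 TPM in KOA, with only library 1 inside the WT range, and fell by 0.49 ± 0.11 (adjusted p 0.00353). Ccne2, the second cyclin E, measured 3.75, 4.43, 5.96 and 4.42 TPM in WT and 2.92, 1.95, 4.21 and 3.17 in KOA and fell by 0.49 ± 0.17 (adjusted p 0.0414). The call on Ccne2 was lost without 1 library: Ccne2 (6694c2 WT 2, 3, 4 or 6694c2 KOA 1, 2, 4, adjusted p 0.0655 to 0.14). Gins2 was below WT in all 4 KOA libraries (37.0, 28.2, 36.9 and 37.3 TPM) without passing (−0.32 ± 0.11, adjusted p 0.0547). The libraries of KOA did not move together: library 2 was the lowest of the 4 for 41 of the 44 genes, and library 3 the highest for 25. Their size factors, 0.904 and 1.07, were also the lowest and highest of the line. With size factors, library 2 still had the lowest mean log2(TPM + 1), at 5.27 for replication and 4.73 for mitotic genes. The other KOA libraries then stood at 5.56 to 5.63 and 5.11 to 5.12, and library 3 was no longer the highest. Top2a, the topoisomerase that untangles chromosomes before mitosis, was at 79.0, 45.1, 115 and 103 TPM in KOA against 53.5, 56.6, 66.9 and 67.0 in WT, so library 2 lay below and the others above WT. Without library 2, 6 genes were called, 5 of them higher, without library 3, 4 were called, all lower, and without WT library 2, 3 or 4 or KOA library 1, 1 remained called. With size factors, 7 were called, all lower, while the calls over all genes went from 2174 higher and 1084 lower to 1779 and 2019. In KOA the leukocyte list summed to 110.4 to 388 TPM (7 to 10 of 18 at 1 TPM or more), the fibroblast list to 194 to 822 and the endothelial list to 5.51 to 19.2. The erythroid list summed to 133 to 244 TPM in KOA, above all WT libraries (84.1 to 125). Their part in these values was not tested.

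Set against each other, the knockout lines of 6694c2 differed in 16 of the 44 genes, all higher in KOA, where 22.9% of all genes were higher and 23.6% lower. Of the 16, 10 were replication genes, with Cdc45 at 0.85 ± 0.18 (adjusted p 0.000711) and Mcm3 at 0.60 ± 0.14 (adjusted p 0.0014). Ccne1, with 4.13, 2.34, 4.86 and 4.81 TPM in KOA, differed by 0.73 ± 0.16 (adjusted p 0.00126), and Foxm1 by 0.44 ± 0.16. The 4 mitotic genes were Bub1 (0.60 ± 0.16), Bub1b (0.41 ± 0.12), Cdk1 (0.39 ± 0.14) and Prc1 (0.52 ± 0.17). In the wider lists, 13 of 40 replication and 15 of 50 mitotic genes were higher and 4 of the 50 mitotic genes lower, beside those shares. Of these calls, 6, 9 and 2 in turn held whichever library was left out. The count of 16 rested in part on single KOA libraries: it was 27 without library 2 and 9 without library 4. Without libraries 1 and 2 it was 25, all higher. Without libraries 3 and 4 it was 6, of which 4 replication genes (Cdc45, Cdt1, Mcm3 and Mcm6) and Ccne1 were higher and Ccne2 was lower in KOA. Of the 16, 9 kept their call whichever library was left out, Cdc45, Ccne1, Mcm3, Mcm6, Rrm1, Mcm4, Cdt1, Bub1 and Bub1b. The others were Mcm2 (6694c2 KOA 4 or 6694c2 KOB 4, adjusted p 0.0522 to 0.0583), Mcm7 (6694c2 KOA 1, 3, 4 or 6694c2 KOB 4, adjusted p 0.0573 to 0.0933), Pcna (6694c2 KOA 3, 4, adjusted p 0.0612 to 0.0736), Cdc6 (6694c2 KOA 1, 3, 4 or 6694c2 KOB 1, 3, 4, adjusted p 0.0532 to 0.165), Prc1 (6694c2 KOA 3, 4, adjusted p 0.0591 to 0.0611), Cdk1 (6694c2 KOA 1, 3, 4 or 6694c2 KOB 1, 3, 4, adjusted p 0.0538 to 0.108) and Foxm1 (6694c2 KOA 1, 3, 4 or 6694c2 KOB 3, 4, adjusted p 0.066 to 0.0992).

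Taking KOA and KOB of 6694c2 as 1 effect, 11 of the 44 genes fell, where 13.5% of all genes fell and 23.9% rose. Of the 11, 8 were replication genes, and the median of that role was −0.31. All 8 were called in KOB alone, but only Rrm2 was called in KOA alone. The others stood in KOA between −0.32 (Gins2) and −0.02 (Mcm6). Cdc45, Cdt1, Mcm6, Pcna and Rrm1 were also called between KOA and KOB, so the joint difference averages lines that differed. Rrm2 fell in both lines by nearly the same amount, and the joint difference was −0.51 ± 0.09 (adjusted p 0.000369). Pcna and Gins2 followed at −0.36 ± 0.07 and −0.44 ± 0.10 (adjusted p 0.00104 and 0.00174). The others were Cdc45 (−0.53 ± 0.15), Rrm1 (−0.34 ± 0.11), Cdt1 (−0.34 ± 0.11), Mcm5 (−0.38 ± 0.13), Mcm6 (−0.24 ± 0.09), Kif20a (−0.33 ± 0.10), Ube2c (−0.35 ± 0.14) and Mybl2 (−0.42 ± 0.13). Calls were lost without 1 library for Rrm1 (6694c2 WT 3, 4, adjusted p 0.054 to 0.0552), Mcm5 (6694c2 WT 3, 4, adjusted p 0.063 to 0.0711), Mcm6 (6694c2 WT 1, 3, 4 or 6694c2 KOA 2 or 6694c2 KOB 3, 4, adjusted p 0.0551 to 0.122), Kif20a (6694c2 WT 3, 4, adjusted p 0.059 to 0.0762), Ube2c (6694c2 WT 2, 3, 4 or 6694c2 KOA 1, 2 or 6694c2 KOB 1, 3, 4 or 6419c5 WT 1, 2 or 6419c5 KOA 2 or 6419c5 KOB 1, 2, 3, adjusted p 0.0509 to 0.17) and Mybl2 (6694c2 WT 4, adjusted p 0.0576). Without 1 library the count was 7 (WT library 3), 5 (WT library 4) or 17 (KOA library 3). With the line as a random effect in limma the count was 0, and 1 of the 44 genes had an unadjusted p under 0.05. With size factors it was 23, all lower, and the calls over all genes went from 3429 higher and 1932 lower to 2801 and 2947.

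In 6419c5, the labelled knockout lines had higher levels of a few of these genes and lower levels of others, and the set as a whole stayed near 0. The median over the 44 genes was −0.07 in KOA and −0.09 in KOB, against 0.04 and 0.10 over all genes. In KOA 4 rose and 3 fell, where 19.1% of all genes rose and 12.7% fell, and in KOB 4 rose and 3 fell, where the shares were 28.5% and 14.7%. Rrm2 measured 55.6, 63.5 and 62.2 TPM in WT, 132, 118 and 105 in KOA and 125, 106 and 126 in KOB. The lines did not overlap with WT, and Rrm2 rose by 0.95 ± 0.13 and 0.96 ± 0.13 in KOA and KOB (adjusted p 1.48e-05 and 8.69e-06). Birc5, the survivin subunit of the chromosomal passenger complex, measured 65.0, 68.6 and 54.3 TPM in WT, 121, 111 and 92.4 in KOA and 95.1, 87.4 and 107 in KOB. It too was apart from WT, and rose by 0.78 ± 0.14 and 0.62 ± 0.14 in the same order (adjusted p 0.000292 and 0.00153). These 4 calls held whichever library was left out. KOA and KOB share their WT libraries, so a gene called in both is not counted here as a finding in 2 independent tests.

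Other calls in 6419c5 were smaller. Mcm2 measured 49.8, 47.8 and 53.9 TPM in WT, 73.9, 74.8 and 64.2 in KOA and 70.6, 64.5 and 65.3 in KOB. Both lines were above WT, at 0.48 ± 0.16 and 0.40 ± 0.16, with adjusted p of 0.0259 in the first and 0.05, under the threshold before rounding, in the second. Cdc6 was also above WT in every library of both lines (3.77, 3.12 and 3.72 TPM in WT, 6.86, 6.20 and 5.05 in KOA and 6.52, 5.36 and 4.51 in KOB), and its difference passed in KOA (0.63 ± 0.23, adjusted p 0.0418). In KOB it did not (0.50 ± 0.23, adjusted p 0.0824). In the opposite direction, Bub1b measured 32.6, 35.3 and 45.5 TPM in WT, 27.8, 27.1 and 28.4 in KOA and 28.2, 23.0 and 26.7 in KOB. It fell in both, by 0.42 ± 0.14 (adjusted p 0.0283) and 0.52 ± 0.14 (adjusted p 0.00622), without overlap. Aurka (−0.44 ± 0.15, adjusted p 0.026) and Ccne1 (−0.57 ± 0.19, adjusted p 0.0282) fell in KOA. Mcm4 (−0.50 ± 0.16, adjusted p 0.0173) and the spindle gene Nusap1 (−0.53 ± 0.17, adjusted p 0.0181) fell and Cdk2 (0.34 ± 0.12, adjusted p 0.0277) rose in KOB. Mcm4 was at 54.2, 58.5 and 65.5 TPM in WT and 49.4, 37.1 and 39.5 in KOB. So the KOB libraries lay above WT for Mcm2 and below it for Mcm4, subunits of 1 ring, but neither call held in every refit.

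Most of these smaller calls depended on single libraries. In KOA the calls lost without 1 library were Mcm2 (6419c5 WT 1, 2 or 6419c5 KOA 1, 2, adjusted p 0.0618 to 0.0764), Cdc6 (6419c5 WT 1, 2, 3 or 6419c5 KOA 1, 2, adjusted p 0.0652 to 0.13), Bub1b (6419c5 WT 3 or 6419c5 KOA 1, 2, 3, adjusted p 0.056 to 0.16), Aurka (6419c5 WT 1, 3 or 6419c5 KOA 3, adjusted p 0.0539 to 0.116) and Ccne1 (6419c5 WT 1, 3 or 6419c5 KOA 3, adjusted p 0.0764 to 0.16). The count of 7 in KOA became 3 without WT library 1 or 3 and 4 without KOA library 2 or 3. In KOB they were Mcm4 (6419c5 WT 3 or 6419c5 KOB 2, 3, adjusted p 0.0574 to 0.0774), Nusap1 (6419c5 WT 3 or 6419c5 KOB 2, adjusted p 0.0612 to 0.0646) and Cdk2 (6419c5 WT 1, 3 or 6419c5 KOB 1, 3, adjusted p 0.0548 to 0.0767). Mcm2 in KOB was lost when any 1 library of 6419c5 was left out, and without most of those of 6694c2 (adjusted p up to 0.128). The replication genes higher in KOB, Rrm2 and Mcm2, went from 2 to 1 with size factors, quantile normalization, a pseudocount of 0.1 or no filter. The count of 7 in KOB became 3 without WT library 3, 4 without KOB library 2 or 3, and 12 without KOA library 2 of 6694c2. The scale also mattered in this clone. Size factors moved the median of all genes in KOB from 0.10 to 0.00 and its calls over all genes from 4088 higher and 2113 lower to 3342 and 3238. Of the 44 genes, 3 then rose and 13 fell in KOB (2 and 15 with quantile normalization), and 4 rose and 7 fell in KOA (4 and 8).

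The 2 knockout lines of 6419c5 differed from each other in 2 of the 44 genes, both higher in KOB, where 4.76% of all genes were higher and 12.7% lower in KOA. Cdk2, the kinase of cyclin E, measured 22.5, 23.9 and 23.5 TPM in WT, 22.1, 20.3 and 19.5 in KOA and 30.8, 28.2 and 30.4 in KOB. KOA lay below WT and KOB above it in every library, and the lines differed by −0.51 ± 0.12 (adjusted p 0.00651). The mitotic kinase Plk1 measured 33.8, 36.9 and 31.9 TPM in KOA and 46.5, 39.3 and 54.8 in KOB (−0.43 ± 0.14, adjusted p 0.0406), a call lost without 1 library: Plk1 (6419c5 KOA 1, 3 or 6419c5 KOB 1, 3, adjusted p 0.0798 to 0.188). With size factors 1 gene was higher in KOA and 1 lower, and the calls over all genes went from 683 higher and 1818 lower to 1334 and 1507. Taking both lines as 1 effect, 4 of the 44 rose (Rrm2, Birc5, Cdc6 and Mcm2) and 4 fell (Bub1b, Mcm4, Nusap1 and Aurka), where 26.5% and 15.0% of all genes did. Their joint differences were 0.96 ± 0.11 for Rrm2, 0.70 ± 0.12 for Birc5, 0.56 ± 0.20 for Cdc6, 0.44 ± 0.14 for Mcm2, −0.47 ± 0.12 for Bub1b, −0.46 ± 0.14 for Mcm4, −0.45 ± 0.15 for Nusap1 and −0.35 ± 0.13 for Aurka. Rrm2 and Birc5 kept their calls whichever library was left out, while calls were lost for Cdc6 (6419c5 WT 1, 2, 3 or 6419c5 KOA 1 or 6419c5 KOB 1, adjusted p 0.0505 to 0.103), Mcm2 (6419c5 WT 2, adjusted p 0.0606), Bub1b (6419c5 WT 3, adjusted p 0.053), Mcm4 (6419c5 WT 3, adjusted p 0.0687), Nusap1 (6419c5 WT 2, 3, adjusted p 0.0514 to 0.0933) and Aurka (6419c5 WT 1, 3 or 6419c5 KOA 3 or 6419c5 KOB 1, 2, adjusted p 0.0537 to 0.165). That count of 8 became 3 without WT library 3 and 14 without KOA library 2 of 6694c2. With the line as a random effect 1 gene, Rrm2, kept its call, and with size factors 4 rose and 12 fell (4 and 15 with quantile normalization), while all genes went from 3796 higher and 2146 lower to 3240 and 3064.

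Markers of other cell types differed between the lines of 6419c5 as well, though members of a list did not all move together. The leukocyte list summed to 559 to 1329 TPM in WT (10 to 11 of 18 at 1 TPM or more), 102 to 1783 in KOA (9 to 11) and 104 to 184 in KOB (8 to 10). The highest KOA value came from library 2. The fibroblast list summed to 1161 to 1987, 672 to 841 and 1651 to 2439 TPM in the same order. The erythroid list summed to 151 to 251, 260.2 to 414 and 112 to 499. The ranges of leukocyte sums in KOA, and of fibroblast and erythroid sums in KOB, overlapped those of WT. In KOB the fibroblast genes Col1a1 and Col1a2 rose (0.99 ± 0.36 and 1.44 ± 0.40). Dcn, Dpt and Pdgfra fell there (−3.36 ± 0.48, −1.11 ± 0.39 and −1.37 ± 0.34), and the other members were not called. The 10 epithelial genes summed to 5851 to 7842 TPM in WT and to 14068 to 15646 and 12566 to 16534 in KOA and KOB. Members of this list moved in both directions. The keratins Krt7, Krt8, Krt18 and Krt19 and the adhesion gene Cdh1 rose in both lines. Cldn7 fell in both lines, Cldn4 fell in KOB and Sox9 fell in KOA. Epcam and Muc1 were not called in either line. Ncr1 was listed at 0 in all WT and KOB libraries. Whether these marker levels bear on Rrm2 or Birc5 was not tested.

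The knockout effect, the mean of both lines less WT, was compared between the clones directly. It was lower in 6694c2 than in 6419c5 for 6 of the 44 genes, where 15.6% of all genes were lower and 13.0% higher. Rrm2 differed most, by −1.46 ± 0.14 (adjusted p 1.01e-06), and was below WT in one clone (−0.51) and above it in the other (0.96). The other 5 were Mybl2 (−0.72 ± 0.20, adjusted p 0.0115), Mcm2 (−0.63 ± 0.18, adjusted p 0.0138), Cdt1 (−0.60 ± 0.16, adjusted p 0.0112), Birc5 (−0.54 ± 0.16, adjusted p 0.0163) and Gins2 (−0.42 ± 0.15, adjusted p 0.0448). Calls were lost without 1 library for Birc5 (6419c5 WT 3, adjusted p 0.0626) and Gins2 (6694c2 WT 1, 3, 4 or 6694c2 KOB 3 or 6419c5 WT 1, 2, 3 or 6419c5 KOA 2 or 6419c5 KOB 1, 3, adjusted p 0.059 to 0.103). With size factors 1 gene was higher and 7 lower, and with the line as a random effect Rrm2 alone remained. Each clone was 1 WT line and 2 knockout lines, so the clone, the line and the effect of the edit cannot be told apart.

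Apart from the knockout lines, the WT lines of the clones differed from each other in 17 of the 44 genes, 8 higher and 9 lower in 6694c2, where 21.5% of all genes were higher and 32.0% lower. Ccne1 was the widest apart, at 3.22, 2.98, 3.43 and 3.16 TPM in 6694c2 and 12.5, 8.86 and 11.3 in 6419c5 (−1.49 ± 0.18, adjusted p 1.55e-06). Rrm2 (0.82 ± 0.12, adjusted p 1.39e-05) and Mcm2 (0.88 ± 0.15, adjusted p 6.89e-05) were higher in 6694c2. Their line means in 6694c2 and 6419c5 were 108 ± 11.8 and 60.4 ± 4.27 TPM for Rrm2 and 94.2 ± 8.77 and 50.5 ± 3.12 for Mcm2 (SD, n = 4 and 3). Mcm4 (−0.92 ± 0.15, adjusted p 4.89e-05), Tyms (−0.63 ± 0.14, adjusted p 0.000899), Cdk2 (−0.65 ± 0.11, adjusted p 9.2e-05) and Hmmr, a spindle-binding hyaluronan receptor (−0.57 ± 0.16, adjusted p 0.00556), were lower in 6694c2. So 2 subunits of the same helicase ring, Mcm2 and Mcm4, stood in opposite order between the clones. Ccne2 was higher in 6694c2 (0.64 ± 0.18). These 8 calls held whichever library was left out. The WT lines also differed in markers of other cell types, in 6694c2 and 6419c5 in turn: leukocyte sums were 90.9 to 647 and 559 to 1329 TPM, fibroblast sums 228 to 352 and 1161 to 1987, endothelial sums 2.28 to 6.31 and 7.88 to 13.0 and erythroid sums 84.1 to 125 and 151 to 251. The fibroblast, endothelial and erythroid sums did not overlap, and their part in these differences was not tested.

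Smaller differences between the WT lines were those of Cdc6 (0.58), Aurkb, the kinase of the passenger complex (0.49), Mcm6 (0.33), Kif20a (0.31) and Pcna (0.27), all higher in 6694c2. Nusap1 (−0.45), Aurka (−0.40), Bub1b (−0.38) and Ccnb2 (−0.35) were lower. Each of these 9 lost its call in at least 1 refit without a library, among them Mcm6 (6419c5 WT 2, adjusted p 0.0881), Ccnb2 (6419c5 WT 2, adjusted p 0.0574), Pcna (6694c2 WT 3 or 6419c5 WT 2, adjusted p 0.0653 to 0.0797), Bub1b (6694c2 WT 1 or 6419c5 WT 3, adjusted p 0.0604 to 0.148), Aurka (6694c2 WT 1 or 6419c5 WT 3, adjusted p 0.0529 to 0.0976), Cdc6 (6694c2 WT 3, 4 or 6419c5 WT 2, adjusted p 0.0632 to 0.0957) and Nusap1 (6694c2 WT 1, 2 or 6419c5 WT 2, 3, adjusted p 0.0563 to 0.0947). Aurkb and Kif20a, with adjusted p of 0.0473 and 0.0488, lost it in most of these refits. The count of 17 was 11 without WT library 2 of 6419c5. With size factors 14 genes were higher and 9 lower, the median of all genes went from −0.11 to −0.02, and the calls over all genes from 3079 higher and 4590 lower to 3964 and 3978.

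Upstream of these genes lie the D cyclins, the CDK inhibitors and the E2F factors, taken here as a list of 29. In KOB of 6694c2, 2 of the 29 rose and 6 fell, where 29.2% and 19.4% of all genes did. In KOA of that clone 5 rose (all genes 15.2%). In KOA of 6419c5 4 fell (all genes 12.7%), and in KOB 5 rose and 3 fell (all genes 28.5% and 14.7%). None of these counts is far above the share of all genes, and the genes below are given for their own values. E2f1, an activator of replication genes, measured 22.5, 24.2, 25.7 and 25.8 TPM in WT of 6694c2, 25.1, 17.1, 32.1 and 34.5 in KOA and 9.39, 11.8, 9.78 and 9.37 in KOB. Only KOB was apart from WT, and E2f1 fell by 1.21 ± 0.16 there (adjusted p 4.97e-06). E2f1 levels in 6419c5 were 12.8, 11.8 and 16.4 TPM in WT, 12.5, 15.0 and 12.9 in KOA and 18.3, 19.3 and 21.7 in KOB, where it rose by 0.51 ± 0.18 (adjusted p 0.0309). That call was lost without 1 library: E2f1 (6419c5 WT 1, 2 or 6419c5 KOB 2, 3, adjusted p 0.0602 to 0.116). Ccnd2, cyclin D2, measured 22.4, 20.4, 19.3 and 20.5 TPM in WT of 6694c2, 41.1, 36.0, 32.7 and 30.7 in KOA and 111, 127, 112 and 85.5 in KOB. All lines were apart, and it rose by 0.73 ± 0.11 in KOA and by 2.33 ± 0.11 in KOB (adjusted p 0.000141 and 3e-11). In 6419c5 the order was the reverse, with 131, 146 and 162 TPM in WT, 102, 91.3 and 116 in KOA and 77.3, 70.6 and 65.3 in KOB (−0.50 ± 0.13, adjusted p 0.00584 and −1.03 ± 0.13, adjusted p 6.02e-06).

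Of the CDK inhibitors, Cdkn1a, which encodes p21, measured 56.8, 57.5, 46.2 and 50.5 TPM in WT of 6694c2, 52.6, 48.6, 42.0 and 41.8 in KOA and 14.5, 15.9, 15.5 and 22.4 in KOB, and fell by 1.59 ± 0.25 in KOB (adjusted p 3.17e-05). KOB was below both other lines in every library. In 6419c5 Cdkn1a overlapped between all lines, at 17.6 to 45.8, 19.1 to 33.7 and 17.4 to 34.8 TPM (−0.09 ± 0.28 and −0.04 ± 0.28). Cdkn1b, which encodes p27, stood at 0.12 ± 0.05 and 0.04 ± 0.05 in KOA and KOB of 6694c2. In 6419c5 it measured 61.1, 64.8 and 68.6 TPM in WT, 42.3, 45.8 and 50.5 in KOA and 45.4, 44.5 and 44.2 in KOB. There it was below WT in all 6 libraries and fell in both lines (−0.48 ± 0.06, adjusted p 9.46e-06 and −0.52 ± 0.06, adjusted p 2.44e-06). Cdkn2c, which encodes p18, rose by 0.84 ± 0.09 in KOB of 6694c2 (adjusted p 3.32e-07). In KOA of 6694c2 the D cyclins Ccnd1 and Ccnd3 and their kinase Cdk4 rose, by 0.55 ± 0.13, 0.40 ± 0.10 and 0.38 ± 0.09. Without KOA libraries 3 and 4 Ccnd1 and Ccnd3 were no longer called there, but Cdk4 was. Ccnd1 in the other lines stood at 0.06 ± 0.13 in KOB of 6694c2 and 0.09 ± 0.15 and −0.04 ± 0.15 in KOA and KOB of 6419c5, and did not pass.

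**Figure D5:**
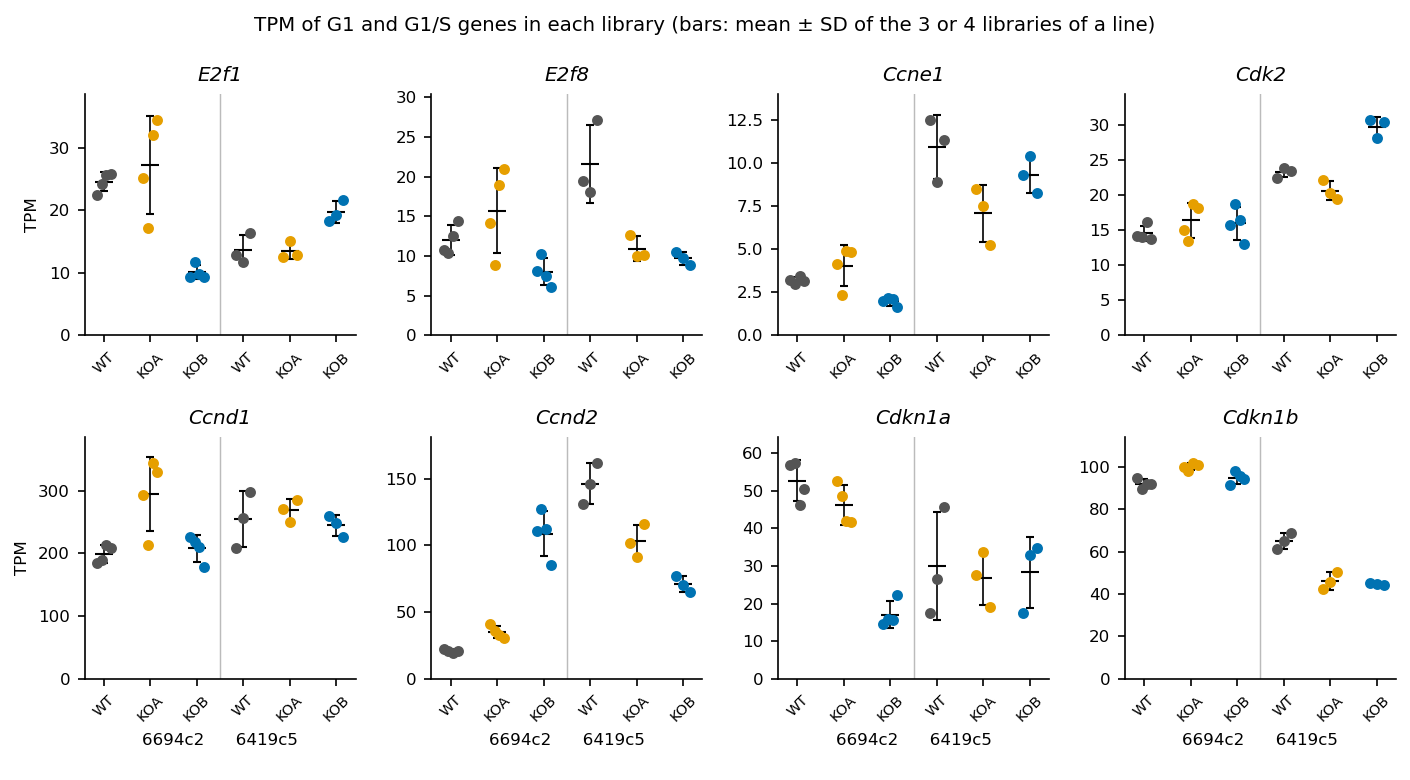
TPM of 8 genes of G1 and S phase entry in each library of the 6 lines (points), with the mean and SD of the 3 or 4 libraries of a line (bars). E2f1 and Cdkn1a are low and Ccnd2 is high in KOB of 6694c2, and Cdkn1b is lower in both knockout lines of 6419c5 than in WT.

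E2f8, an E2F repressor, fell in both knockout lines of 6419c5, from 19.5, 18.1 and 27.2 TPM in WT to 12.7, 9.95 and 10.1 in KOA and 10.5, 9.70 and 8.86 in KOB. Both lines were below WT throughout, by 0.91 ± 0.24 and 1.06 ± 0.24 (adjusted p 0.00619 and 0.00143). In KOB of 6694c2 it also fell (−0.54 ± 0.20, adjusted p 0.0347), a call lost without 1 library: E2f8 (6694c2 WT 3, 4 or 6694c2 KOB 1, 3, 4, adjusted p 0.0561 to 0.108). The other E2F genes moved less. E2f2 and E2f4 stood at 0.38 ± 0.15 and 0.35 ± 0.13 and E2f7 at 0.53 ± 0.19 in KOB of 6419c5, all 3 called with adjusted p from 0.0277 to 0.0462. They were lost without 1 library: E2f2 (6694c2 WT 2, 3, 4 or 6694c2 KOB 3 or 6419c5 WT 2, 3 or 6419c5 KOA 1, 2 or 6419c5 KOB 2, 3, adjusted p 0.051 to 0.177), E2f4 (6419c5 WT 3 or 6419c5 KOB 1, 2, 3, adjusted p 0.0565 to 0.125) and E2f7 (6419c5 WT 1, 2 or 6419c5 KOB 1, 3, adjusted p 0.0567 to 0.0969). With size factors E2f2 and E2f4 did not pass. E2f3 fell by 0.43 ± 0.11 in KOB of 6694c2 (adjusted p 0.00368). E2f5 and E2f6 did not pass in any of the 4 lines, with their widest differences in KOB of 6419c5 (0.22 ± 0.09 and 0.26 ± 0.12). E2f2, E2f3, E2f4 and E2f7 did not pass in the lines not named for them.

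In the wider lists of 6419c5, the counts were no larger than the share of all genes. Of 40 replication genes 4 rose and 2 fell in KOA, where 19.1% and 12.7% of all genes did. In KOB 5 rose and 3 fell, where 28.5% and 14.7% of all genes did. Tk1, thymidine kinase (0.63 ± 0.12), and the polymerase alpha subunit Pola2 (0.66 ± 0.13) rose in KOA, and the polymerase delta subunit Pold1 rose in both lines (0.45 ± 0.12 and 0.66 ± 0.12), as did Pola2 in KOB (0.64 ± 0.13). Chaf1b, a histone chaperone, rose in KOB (0.67 ± 0.14), and the primase subunit Prim2 fell in both (−0.41 ± 0.10 and −0.46 ± 0.10). Of 50 mitotic genes 3 rose and 6 fell in KOA, and 5 rose and 4 fell in KOB, again beside those shares of all genes. Mad2l1, a checkpoint gene, rose in both lines (0.73 ± 0.16 and 0.54 ± 0.16), as did the kinetochore gene Spc24 (0.56 ± 0.15 and 0.61 ± 0.15). Ckap2 (−0.69 ± 0.13) and Ska1 (−0.55 ± 0.16) fell in KOA, and the condensin subunit Ncapd2 (−0.65 ± 0.14) and the kinesin Kif18a (−0.58 ± 0.15) fell in KOB. In KOA of 6694c2, Pold2 (0.42 ± 0.13) and Orc2 (0.34 ± 0.11) were the 2 of 40 replication genes called, both higher. Cks2 (−0.34 ± 0.09) and Cdca2 (−0.37 ± 0.12) were the 2 of 50 mitotic genes, both lower. Of all genes, 15.2% rose and 7.56% fell there.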

How the data were processed

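RNA sequencing was measured in 21 libraries, 4 for each of the 3 lines of 6694c2 and 3 for each of the 3 lines of 6419c5. The authors deposited 1 table of TPM per gene, and per the submitters' processing notes it was made with Salmon (version not stated) on mm10. The labels' protocols give total RNA from sorted cells and an NEB library kit. TPM keeps no read depth, so sequencing depth is not known here and counting error cannot be stated. Libraries had 12437 to 13316 genes at 1 TPM or above, and those of a line correlated at 0.982 to 0.995.

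Genes at 1 TPM or more in at least 3 libraries (14337) were put on the log2(TPM + 1) scale and fitted with limma 3.58.1 in R 4.3.3, with 6 lines as groups, a trended empirical Bayes variance and 15 residual degrees of freedom. This understates changes of low genes. Calls are Benjamini-Hochberg adjusted p under 0.05 over all tested genes. Size factors are medians of ratios computed on the TPM of tested genes. The script was tested on simulated data. Python 3.11.15 was used for the rest, and promoter windows came from RefSeq GRCm38.p6.

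The 44 genes were named whatever their values. From the wider replication, mitotic and G1 lists up to 4 genes with the smallest adjusted p were named for each line against WT, and the E2F genes, Ccnd1, Cdkn1a and Cdkn1b whatever their values. Marker lists are given as sums, with some members also named. The genes and lists were chosen with earlier results of these data known. Alternatives were other scales, pseudocounts and filters, fits on 1 clone, left-out libraries and the line as a random effect. Rescaling without Mir6236 and the column number as a block were added after seeing the data.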

Additional observations from a re-analysis of the deposited data

Results flagged for a closer look

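Among groups of 4 libraries, 132 gene and line combinations of 6694c2 were examined for a library far from the other 3, and 14 were found, where chance gives about 1 in 20. In KOA, 10 genes had library 2 far below the others. These were Mcm2 at 67.5 TPM, Mcm3 at 46.0, Mcm6 at 88.9, Mcm7 at 85.8, Gins2 at 28.2, Mki67 at 26.3, Bub1b at 21.8, Tpx2 at 20.4, Foxm1 at 29.5 and Mybl2 at 8.19. In KOB, 4 genes had library 4 far below the others, Mcm2 at 53.7 TPM, Mcm3 at 33.0, Cdt1 at 24.2 and Rrm1 at 21.5. KOB library 4 is the one with 14.5% of its TPM in Mir6236. The genes are not independent within a library.

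The knockout effect differed between the clones, by limma's test of the difference, for 6 of the 44 genes. All were lower in 6694c2, where 15.6% of all genes were lower and 13.0% higher. With the line as a random effect Rrm2 alone remained, and the calls on Birc5 and Gins2 were lost without 1 library. On the log2(TPM + 1) scale, 6694c2 less 6419c5, the values were −1.46 for Rrm2, −0.72 for Mybl2, −0.63 for Mcm2, −0.60 for Cdt1, −0.54 for Birc5 and −0.42 for Gins2.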

How the results depend on the processing

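The number of the 44 genes called moved by over 1.5 times under these alternatives. In KOA less WT of 6694c2 (2 genes, both lower) it was 7 with size factors and 5 with quantile normalization. It was 1 with no filter, with a filter of 5 TPM or with a fit on 1 clone. Without KOA libraries 1 and 2 it was 9, with 6 mitotic and 2 S phase entry genes higher and 1 replication gene lower. Without libraries 3 and 4 it was 4, all lower. In KOA less WT of 6419c5 (7) it was 11 with size factors, 12 with quantile normalization and 4 without the libraries of high Mir6236. In KOB less WT of 6419c5 (7) it was 16, 17 and, without KOA libraries 1 and 2 of 6694c2, 12. In KOA less KOB of 6694c2 (16) it was 10 without the libraries of high Mir6236, 25 without KOA libraries 1 and 2 and 6 without 3 and 4, and in that of 6419c5 (2) it was 1 with no filter or a fit on 1 clone. In KO less WT of 6694c2 (11) it was 23 with size factors, 20 with quantile normalization, 19 without KOA libraries 3 and 4 and 0 with the line as a random effect in limma (unadjusted p under 0.05 for 1 gene). In KO less WT of 6419c5 (8) it was 16, 19 and 1 with the same scales and the random effect, and 14 without KOA libraries 1 and 2 of 6694c2. In the difference of the effects (6) it was 10 without KOA libraries 3 and 4 and 1 with the random effect. The counts in KOB less WT of 6694c2 (22) and between the WT lines (17) stayed within 1.5 times under these alternatives, though WT of 6419c5 library 2 moved the latter to 11.

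Leaving out each library in turn gave 1 to 6 calls in KOA less WT and 17 to 23 in KOB less WT of 6694c2, 3 to 10 and 3 to 12 in 6419c5, 9 to 27 in KOA less KOB of 6694c2 and 1 to 3 in that of 6419c5, 5 to 17 and 3 to 14 in KO less WT of 6694c2 and 6419c5, 4 to 7 in the difference and 11 to 20 between the WT lines. Of 162 named differences, not counting members of the marker lists, 136 were called and 71 kept their call under every alternative run.

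Differences near 0 that had not passed the test changed sign in these cases, and the cause was not tested. Ccna2 in KOB less WT of 6694c2 was −0.02, and 0.04 without the libraries of high Mir6236 and −0.09 to 0.04 with 1 library left out. Ccnd1 in KOA less WT of 6419c5 was 0.09, and −0.02 with quantile normalization and −0.04 to 0.21 with 1 library left out. Ccnd1 in KOB less WT of 6419c5 was −0.04, and 0.08 without the libraries of high Mir6236 and −0.18 to 0.08 with 1 library left out. Ccnd1 in KOB less WT of 6694c2 was 0.06, and −0.02 with size factors. Ccne2 in KOB less WT of 6694c2 was −0.09, and −0.17 to 0.01 with 1 library left out. Cdk2 in KOB less WT of 6694c2 was 0.12, and −0.00 with quantile normalization. Cdkn1a in KOA less WT of 6419c5 was −0.09, and 0.26 without the libraries of high Mir6236 and −0.41 to 0.26 with 1 library left out. Cdkn1a in KOB less WT of 6419c5 was −0.04, and 0.31 without the libraries of high Mir6236 and −0.35 to 0.31 with 1 library left out. Cdkn1b in KOB less WT of 6694c2 was 0.04, and −0.03 with size factors. Plk1 in KOB less WT of 6694c2 was 0.07, and −0.01 with size factors and −0.03 to 0.13 with 1 library left out. Tyms in KOB less WT of 6694c2 was −0.05, and 0.03 without the libraries of high Mir6236 and −0.12 to 0.03 with 1 library left out.

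Same-numbered libraries within a clone showed little joint deviation: 21 pairs had r from −0.15 to 0.17, 6 of them over 0.1. With so few libraries per line, these values cannot decide whether the column numbers mark a shared batch. With the numbers as a replicate block, 1 gene was called in KOA less WT of 6694c2 and 1 in KOA less KOB of 6419c5. In KOB less WT of 6694c2, 21 were called. Not every library correlated best with its own number (8 of the 21 did).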
